A study of Danio rerio with 80 samples.

Results

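The comparison described here sets 16 zebrafish brains taken at 226 days after fertilisation against 16 taken at 219 days, 32 of the 80 libraries of the study. Members were chosen by the exposure replicate number in the sample titles, where number 5 stands for 226 days and number 6 for 219 days. The study asked whether exposure to pollutants in early development left a mark on the adult brain. All fish were wild type and of the AB strain, and each library holds the poly-A RNA of 1 whole brain.

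Control fish had been kept in 0.1% dimethyl sulfoxide from 6 to 96 hours after fertilisation, and this solvent is shared by all groups. POP10 and POP70 fish had been kept over the same hours in a mixture of persistent organic pollutants at 10 and 70 times the human blood levels it was modelled on. PFOS10 and PFOS70 fish had been kept in perfluorooctane sulfonic acid alone, a fluorinated surfactant, at 0.3 and 2.06 mg/L. They were raised to adulthood without further exposure. Each age in the comparison has 4 fish, 2 females and 2 males, from each of control, POP10, POP70 and PFOS10. The PFOS70 fish of both ages are left out of the main comparison, a choice made with their values known, and they are described in a paragraph of their own. The 4 fish of 1 condition and age come from 1 exposure replicate. Age, replicate number, day and hour of sampling, and exposure batch therefore cannot be told apart, and the labels give no hour of sampling.

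The vertebrate circadian clock is a feedback loop of transcription factors that runs in nearly every cell. CLOCK and BMAL proteins switch on period and cryptochrome genes, whose proteins return to the nucleus and block that activation. A second loop of Rev-erb repressors and ROR activators acts on the Bmal genes, so Rev-erb and Bmal transcripts peak at opposite times of day. In zebrafish, light reaching the tissue itself also induces some clock genes and DNA repair genes.

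Libraries held 12.9 ± 1.79 Mreads (1 Mread is 1000000 reads, recovered from the deposited values) at 226 days (SD, n = 16) and 11.8 ± 1.11 Mreads at 219 days. Levels below are the deposited log2 values, on a scale close to log2 reads per Mread (RPM), and differences are 226 minus 219 days on this log2 scale. Genes were tested if the mean of their log2 values over all 80 libraries was at least that of 10 RPM, 10231 in number. The test was limma on 1 mean per condition and sex, and a gene was called at an adjusted p under 0.05. The 32 libraries had a neuronal profile. The synaptic gene snap25a stood between 12.44 and 12.97, and the summed level of 10 pituitary hormone genes lay between 4.60 and 26.3 RPM. Mitochondrial transcripts took 10.1% ± 1.42 of the reads at 226 days and 11.1% ± 2.30 at 219 days.

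The gene nr1d1, which encodes the repressor Rev-erb alpha, was low in the brains of 226 days and high in those of 219 days. Its level ran from 2.63 over a median of 3.30 to 4.42 in the 16 fish of 226 days, and from 6.80 over 7.36 to 7.96 in the 16 fish of 219 days. Every fish of 226 days lay below every fish of 219 days, and the gap between the groups was wider than the range within either. The difference was -3.96 ± 0.13 (SE), 15.6-fold, with an adjusted p of 4.22e-19 (limma). By condition it was -4.20 in control, -4.12 in POP10, -3.69 in POP70 and -3.85 in PFOS10. On the GRCz11 assembly nr1d1 (ENSDARG00000033160) lies on the plus strand of chromosome 3 from 23488652 to 23496223.

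The gene arntl1a, a Bmal1 gene and so the activating arm of the loop, stood the other way round. Its level ran from 6.86 over a median of 7.14 to 7.39 at 226 days and from 5.59 over 6.08 to 6.34 at 219 days. Again the groups did not overlap, with the fish of 226 days on top. The difference was 1.14 ± 0.06, 2.21-fold, with an adjusted p of 5.86e-14 (limma), and it lay between 0.96 in POP10 and 1.27 in POP70. The gene (ENSDARG00000006791) lies on the minus strand of chromosome 25 from 17893784 to 17918810. Both marker genes thus stood at opposite ends at these ages. A clock phase itself was not measured, since each fish gives 1 time point of unknown hour.

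**Figure D1:**
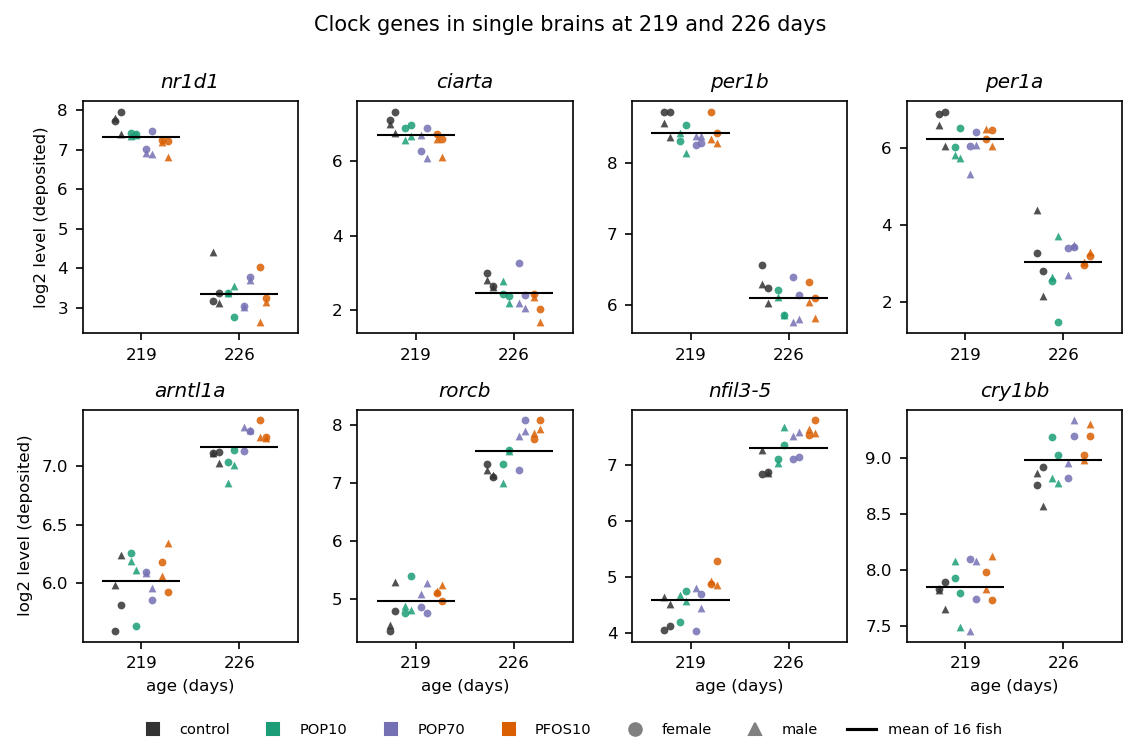
Deposited log2 levels of 8 clock genes (vertical axes) in single brains of 219 and 226 days (horizontal axes), coloured by condition, circles for females and triangles for males, with a line at the mean of 16 fish. The ages do not overlap in any of the 8 genes, and nr1d1, ciarta, per1b and per1a stand lower at 226 days while arntl1a, rorcb, nfil3-5 and cry1bb stand higher.

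Taken per exposure replicate, nr1d1 averaged 3.36 ± 0.12 at 226 days (SD over 4 replicate means) and 7.32 ± 0.30 at 219 days. The gene arntl1a averaged 7.16 ± 0.13 and 6.02 ± 0.09. For each, an exact permutation test of 4 against 4 replicates gave a two-sided p of 0.0286, the smallest that this design can give, and 0.0429 adjusted over 3 measures. Paired by condition the exact permutation p was 0.125 for each, again the smallest that 4 pairs can give, so the paired test cannot pass. At its smallest the unpaired p shows only that the replicate means of the ages did not overlap, whatever the size of the gap. The 4 means of an age also share a replicate number across the conditions, so they may not be independent in a comparison of ages. Both genes were named as markers with these data known, so the tests are no independent support.

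Most clock genes differed between the ages. The 4 lists of clock genes had 41 entries in the table, of which 29 passed the filter on level. Of these 29 limma called 25, 8 higher and 17 lower at 226 days, beside a background of 25.0% of all tested genes called, 18.2% higher and 6.82% lower. The 16 fish of each age did not overlap for 20 of the 29, against 0.489% of all tested genes. The lists, these ages and the omission of PFOS70 were chosen with earlier results of these data known. The high shares of clock genes are therefore partly built in and are no independent support. All 25 remained called when a correlation between fish of 1 exposure replicate was put in the model, and 22 with replicate means as the unit; arntl1b, tefb and bhlhe40 then did not pass.

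Among the activators, arntl1b was higher at 226 days by 0.86 ± 0.20 (adjusted p = 0.00316, limma), with overlapping ranges of 3.06 to 5.11 and 2.27 to 4.97. It was higher in 3 of 4 conditions and differed by -0.05 in PFOS10. With the PFOS70 fish included arntl1b did not pass. The remaining activators were too low for the filter. In a fit of all 23473 listed entries arntl2, a further Bmal gene, rose by 1.42 ± 0.13 (adjusted p = 3.33e-08, limma), from a median of 2.47 to 3.67. The partner genes clocka and clockb and their relative npas2 did not pass there, with 0.18 ± 0.33, -0.17 ± 0.21 and -0.47 ± 0.27 in this order.

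All 10 period and cryptochrome genes were called, and none had overlapping groups, beside 25.0% called and 0.489% without overlap over all tested genes. The period genes, repressors of CLOCK and BMAL, all fell. The per1b level ran from 5.76 over 6.11 to 6.56 at 226 days and from 8.14 over 8.38 to 8.72 at 219 days, a difference of -2.33 ± 0.06 (adjusted p = 1.01e-21, limma) that lay between -2.37 and -2.29 in the 4 conditions. The per1a level ran from 1.48 over 3.13 to 4.40 and from 5.32 over 6.15 to 6.94, a difference of -3.19 ± 0.19, or 9.13-fold. The per3 difference was -2.20 ± 0.12, and per2, which light induces in zebrafish, fell by 1.42 ± 0.07.

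The cryptochromes split. Of the 6 in the list, 3 fell and 3 rose. The gene cry2 fell by 1.63 ± 0.08, cry1ab by 1.06 ± 0.10 and cry1aa by 0.74 ± 0.04. In contrast, cry1bb was higher by 1.14 ± 0.07, with 8.58 to 9.34 at 226 days above 7.45 to 8.13 at 219 days. Its paralog cry1ba was higher by 0.63 ± 0.05 and cry4 by 0.99 ± 0.08, each with an adjusted p of 2.11e-10 (limma). So the period genes and cry1aa, cry1ab and cry2 stood low at the age at which the Bmal genes and cry1ba, cry1bb and cry4 stood high.

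Of the Rev-erb, ROR and ciart list, 7 of 12 entries were tested and 5 were called, 1 higher and 4 lower. The gene ciarta, which encodes a repressor of CLOCK and BMAL, had the largest difference of all tested genes by absolute size, -4.27 ± 0.10, or 19.3-fold (adjusted p = 1.01e-21, limma). Its level ran from 1.65 over 2.40 to 3.27 at 226 days and from 6.08 over 6.73 to 7.35 at 219 days. The groups stood far apart. The gene (ENSDARG00000058094) lies on the minus strand of chromosome 19 from 8928434 to 8940068.

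The further Rev-erb genes nr1d2b and nr1d2a fell by 1.49 ± 0.06 and 1.01 ± 0.18, the latter with overlapping groups. The gene rorcb encodes an activator that binds the same DNA element as the Rev-erb proteins. It was higher by 2.60 ± 0.09, or 6.04-fold, from 4.45 to 5.41 at 219 days to 7.01 to 8.09 at 226 days. The other ROR genes tested, roraa and rorab, did not pass, at -0.17 ± 0.08 and -0.06 ± 0.04. Below the filter, in the fit of all entries, rorca rose by 1.38 ± 0.17 (adjusted p = 2.28e-06, limma), ciartb fell by 2.95 ± 0.39 (9.72e-06) and nr1d4a fell by 0.44 ± 0.14 (0.0439).

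The output factors carry the clock's timing to other genes. The PAR bZIP proteins of dbp, tef and hlf activate through a DNA element called the D-box, and the nfil3 proteins repress through it. The repressor gene nfil3-5 ran from 6.85 over 7.32 to 7.81 at 226 days and from 4.03 over 4.66 to 5.29 at 219 days, higher by 2.72 ± 0.07, or 6.59-fold, and nfil3 was higher by 0.99 ± 0.07. The activator genes moved the opposite way: dbpa fell by 2.57 ± 0.21, dbpb by 1.36 ± 0.07, tefa by 1.08 ± 0.07 and tefb by 1.36 ± 0.30. The E-box repressor genes bhlhe41 and bhlhe40 fell by 1.44 ± 0.06 and 0.24 ± 0.05. Members that did not pass were hlfa at 0.10 ± 0.17 and nfil3-6 at -0.60 ± 0.24. The tefb difference was -2.41 in PFOS10 and -0.43 in POP10, and it did not pass without PFOS10. The bhlhe40 call ended with the PFOS70 fish included, in females alone, and when fish 1 or fish 2 of each sex and replicate was left out.

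**Figure D2:**
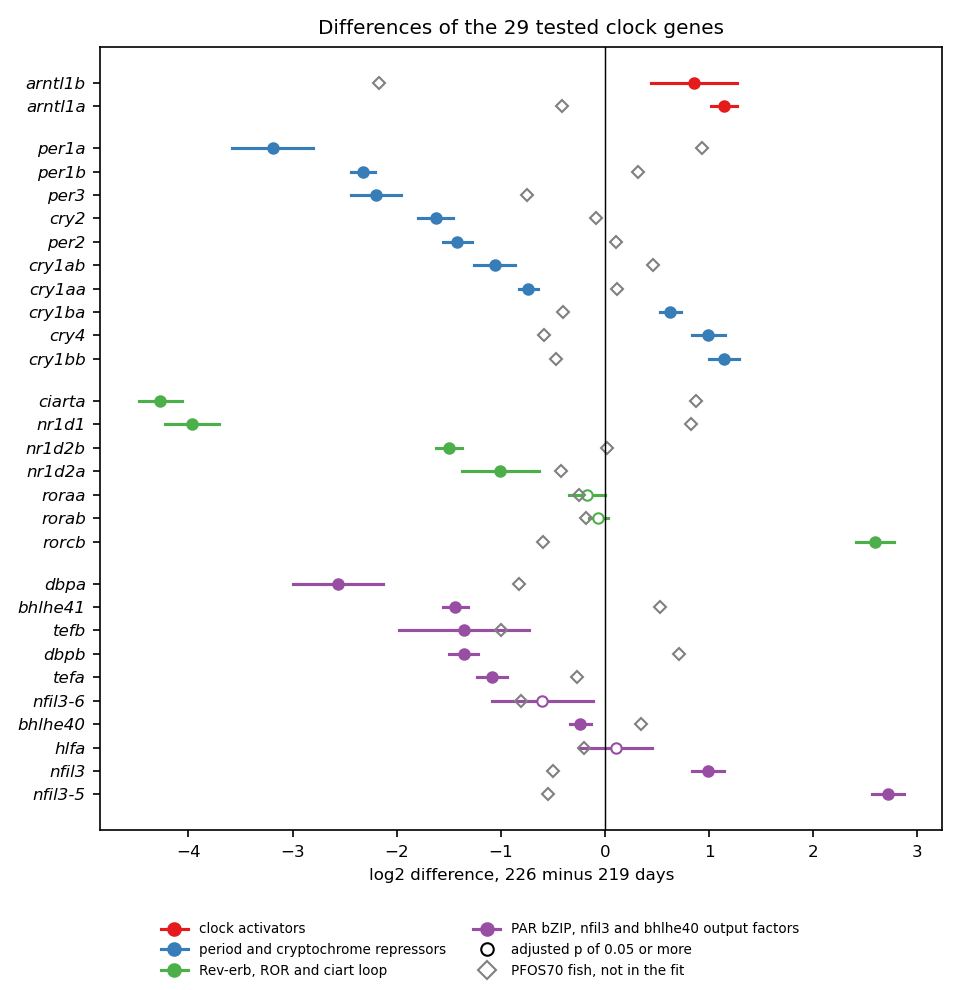
Log2 difference of 226 minus 219 days (horizontal axis) for the 29 tested clock genes, coloured by list, with 95% confidence intervals from the fit of 32 fish, open circles for an adjusted p of 0.05 or more, and grey diamonds for the difference in the 8 PFOS70 fish, which are not in the fit. Intervals reach from -4.27 for ciarta to 2.72 for nfil3-5 at their centres, and the diamond lies across the zero line from the circle for 19 of the 25 called genes.

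Enzymes and proteins around the clock moved less. Of 13 kinase and ubiquitin ligase genes of the clock 3 were called, all lower: csnk1da and csnk1db, the casein kinase 1 delta genes that phosphorylate period proteins, by 0.33 ± 0.04 each, and csnk2a2b by 0.16 ± 0.06, beside 6.82% of all tested genes called lower. With the correlation within exposure replicates csnk2a2b did not pass (adjusted p = 0.075, limma). The median over these 13 was -0.01, beside 0.04 over all tested genes. Of 5 tested output regulators ppargc1b, a coactivator of mitochondrial genes, fell by 0.52 ± 0.07 and usp2a, a deubiquitinase, by 0.24 ± 0.07. The usp2a call ended with replicate means, in either sex alone, and when control, POP10 or POP70 was left out. Both cold-inducible RNA-binding protein genes were called higher, beside 18.2% of all tested genes. The gene cirbpb rose by 0.28 ± 0.04 and cirbpa by 0.22 ± 0.05, and neither passed with replicate means.

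Genes of light response and DNA repair fell nearly as a block. Of the 8 in the list, all tested, 7 were lower and 1 higher, beside 6.82% and 18.2% of all tested genes. The median was -0.77, and 4 had groups that did not overlap, against 0.489% of all tested genes. The photolyase relative cry-dash ran from 2.88 over 3.51 to 3.79 at 226 days and from 5.12 over 5.71 to 6.01 at 219 days, a difference of -2.21 ± 0.08 (adjusted p = 3.6e-17, limma). The gene ddb2, which recognises ultraviolet damage in DNA, fell by 1.95 ± 0.09, from a median of 6.31 at 219 days to 4.36 at 226 days. The photolyase gene cry5 fell by 1.29 ± 0.07 and lonrf1l by 1.07 ± 0.08, again without overlap.

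Smaller falls were seen in this list for xpc, a damage sensor of excision repair, by 0.48, for lonrf1 by 0.42 and for the glycosylase gene neil1 by 0.31. The gene polh, which encodes a polymerase that copies past ultraviolet damage, rose by 0.29. Reads were not stated to be counted by strand, and ddb2 overlaps the entry kbtbd4, cry5 the entry foxred1, and lonrf1l the entries si:dkey-258f14.2 and si:dkey-258f14.7, so their reads may be shared. With replicate means as the unit, 4 of the 7 remained lower.

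Chaperone genes, whose proteins help others fold, fell in part. Of 31 tested 12 were lower and 0 higher, with a median of -0.11, beside a background of 6.82% lower. The gene hsf2, a heat shock transcription factor, ran from 4.62 over 4.96 to 5.44 at 226 days and from 6.46 over 6.67 to 7.12 at 219 days, a difference of -1.79 ± 0.06 (adjusted p = 6.86e-18, limma). It was the sole chaperone list member whose groups did not overlap, against 0.489% of all tested genes. The inducible hsp70l fell by 1.69 ± 0.20 with overlapping groups, 2.87 to 4.78 against 4.00 to 5.93. The endoplasmic reticulum chaperone gene hspa5 fell by 0.38 ± 0.06 and dnaja1, a cochaperone gene that overlaps the entry smu1b, by 0.45 ± 0.09. The median was near zero in control, at 0.00, and -0.16, -0.10 and -0.26 in POP10, POP70 and PFOS10. With replicate means as the unit 2 of the 12 remained lower.

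Over all 10231 tested genes, 2559 were called, 1861 higher and 698 lower at 226 days. Most called differences were small, with a median size of 0.26 on the log2 scale. At least 2-fold changes were rarer and lay mostly downward, with 10 genes higher (0.0977%) and 49 lower (0.479%). Of the 2559 called genes 88.2% had the same direction in 4 of 4 conditions, against 35.3% of all tested genes. The genes were called on the mean over these same 4 conditions, so a high share is partly built in. In all, 50 genes had groups that did not overlap, of which 14 were higher (0.137%) and 36 lower (0.352%). The 4 clock lists held 20 of these 50 and the light and DNA repair list 4.

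The count of calls depends on the unit of replication. Even the replicate means of an age share a replicate number across the conditions, so no fit here is known to rest on independent replicates of an age. With the correlation within exposure replicates limma called 1885 genes (18.4%), and with replicate means 148 (1.45%), 75 higher and 73 lower. Leaving out fish 1 of each sex and replicate gave 448 calls, and leaving out fish 2 gave 208.

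**Figure D3:**
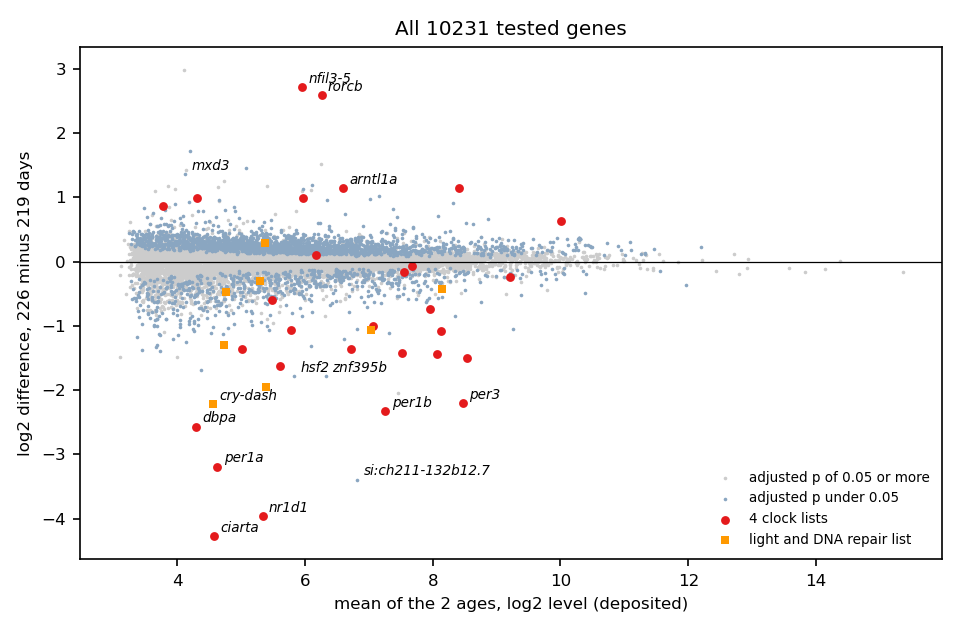
Log2 difference of 226 minus 219 days (vertical axis) against the mean deposited log2 level of the ages (horizontal axis) for all 10231 tested genes, with the 2559 called genes in blue, the 4 clock lists in red and the light and DNA repair list in orange. The cloud of small blue differences lies mostly above zero, while ciarta, nr1d1, per1a and other clock genes stand far below it.

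Outside the clock lists, the genes with the largest called rises of 1 direction in 4 of 4 conditions fell into tight and loose ones. The gene mxd3, a partner of MAX that opposes MYC, was higher by 1.36 ± 0.07 with 4.59 to 5.11 at 226 days above 3.07 to 3.76 at 219 days. The gene impdh1b, an enzyme of guanine nucleotide synthesis, was higher by 1.13 ± 0.05, with medians of 6.49 and 5.41 and no overlap. The linker histone genes h1fx and h1f0 were higher by 1.02 ± 0.15 and 0.91 ± 0.14 with overlapping groups, and h1fx overlaps the entry arpc4. Transcript C11orf96 was higher by 0.80 ± 0.08 and slc16a6b, a monocarboxylate transporter gene, by 0.83 ± 0.15.

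The loose ones had wide ranges at both ages. The monocarboxylate transporter gene slc16a8 had the largest of these means, 1.72 ± 0.59 (adjusted p = 0.033, limma), but ran from -0.32 to 6.35 at 226 days and from -0.48 to 6.38 at 219 days. It did not pass with the correlation within exposure replicates (adjusted p = 0.064, limma), nor did gnl2, a nucleolar GTPase gene with 4.56 to 8.42 against 4.40 to 7.99 (0.06), or setd3, a methyltransferase gene, at 0.83 ± 0.27 (0.053). The others named by the rule were mcm7, stard9, mettl1, dglucy, slc35b3 and eps8l3a, between 0.81 and 0.96. Of these, gnl2 overlaps the entry dnali1 and mettl1 the entry poc1a.

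The largest called falls outside the clock lists included cry-dash, ddb2, hsf2, hsp70l and cry5. The zinc finger gene znf395b fell by 1.78 ± 0.05 (adjusted p = 5.13e-20, limma), with 5.21 to 5.61 at 226 days below 6.88 to 7.55 at 219 days. Both enzymes of proline breakdown in the mitochondrion fell, prodha by 1.12 ± 0.21 and aldh4a1 by 1.39 ± 0.17, each with overlapping groups. The prostaglandin D synthase gene ptgdsb.1 fell by 1.32 ± 0.19, by 0.61 in control and 2.17 in PFOS10.

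Falls with wide overlap were seen for slc17a6a, a vesicular glutamate transporter gene, at -1.38 ± 0.44, which ran from 0.90 to 4.26 and from 0.82 to 7.29, for PLCB2 at -1.30 ± 0.35, slc4a10b at -1.14 ± 0.30 and arhgap44 at -1.14 ± 0.30. In these 4 genes the PFOS10 difference was the largest, between -2.56 and -1.90. None of the 4 passed without PFOS10 or with replicate means, and slc17a6a, PLCB2 and arhgap44 did not pass with the leading principal component of the libraries as a covariate. The genes qpct at -1.20 ± 0.36 and rab5b at -1.13 ± 0.28 overlap the entries mocs3 and si:rp71-45g20.11. By the same rule of size 1 clone name was passed over among the rises and 2 among the falls.

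Beyond the clock and light lists 26 genes had groups that did not overlap, 8 higher and 18 lower. Named here after their values were seen, they included cipcb, whose mammalian counterpart binds CLOCK, lower by 1.04 ± 0.05. The enzyme genes arg2, of arginine breakdown, and amd1, of polyamine synthesis, were lower by 1.12 ± 0.07 and 1.05 ± 0.04. The gene nfe2l2a, the Nrf2 factor of the oxidative stress response, was lower by 0.58 ± 0.06 and mthfd2, of mitochondrial folate metabolism, by 0.54 ± 0.06. The gene rimkla, which makes the neuronal dipeptide N-acetylaspartylglutamate, was higher by 0.59 ± 0.03, and the transcript si:ch211-132b12.7 was lower by 3.39 ± 0.09.

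Small shifts ran through energy and translation genes. Of 84 nuclear genes of oxidative phosphorylation 30 were higher and 0 lower, with a median of 0.15 beside 0.04 over all tested genes and 18.2% called higher. Among them ndufa1 of complex I was higher by 0.53 ± 0.10, uqcrh of complex III by 0.24 ± 0.04 and atp5po of the ATP synthase by 0.27 ± 0.05. The median was 0.27 in control, 0.19 in POP10, 0.17 in POP70 and -0.04 in PFOS10. Of the 13 mitochondrial genome transcripts 3 were lower and 0 higher, beside 6.82% and 18.2% of all tested genes. They were mt-nd5 by 0.36, mt-atp8 by 0.48 and mt-nd4l by 0.51, each of which overlaps a neighbouring mitochondrial entry. The median of the 13 was -0.18 in control, -0.17 in POP10, -0.36 in POP70 and 0.18 in PFOS10. Of 80 ribosomal protein genes 26 were higher and 0 lower, with a median of 0.13 and rps23 at 0.22 ± 0.05. With the correlation within exposure replicates 22 oxidative phosphorylation and 19 ribosomal protein genes were higher, and with replicate means 2 and 1. The 3 mitochondrial calls held with the correlation and ended with replicate means.

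The calls in these lists changed when the leading principal component of the libraries was put in the model. A principal component analysis of the 32 libraries gave a leading component with 29.5% of the variance. It averaged -0.38 ± 0.67 at 226 days and 0.38 ± 1.15 at 219 days (SD, n = 16), and over the 4 replicate means per age an exact permutation test gave a two-sided p of 0.171. The 4 PFOS10 fish of 219 days averaged 1.78 ± 0.65, and 3 of them had the 3 highest values of the 32 libraries, up to 2.47, while the lowest, at 0.93, lay among fish of other groups. With the component as a covariate 4 ribosomal protein genes were higher and 1 lower, and without PFOS10 9 were higher, while of the oxidative phosphorylation genes 46 and 34 were higher. The mitochondrial genome had 9 lower with the covariate and 4 without PFOS10. All 25 called clock genes were called with the covariate too. The component was computed from the same values, with the age difference in them. What sets it, RNA composition included, was not tested.

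Genes of synaptic transmission were called lower more often than higher. Of 42 glutamate and GABA genes 10 were lower and 2 higher, beside 6.82% and 18.2% of all tested genes, with a median of -0.14. The lower ones included grin2ab, an NMDA receptor subunit gene, by 0.46 ± 0.08, slc17a6b, a vesicular glutamate transporter gene, by 0.31 ± 0.06, and slc32a1, the vesicular GABA transporter gene, by 0.17 ± 0.04. The median was 0.02 in control and -0.21 in PFOS10. The number lower was 8 with the correlation within exposure replicates, 0 with replicate means and 6 without PFOS10. Of 24 neuronal genes 4 were lower, such as elavl4 by 0.11 ± 0.03, map2 by 0.24 ± 0.07 and syn2b by 0.34 ± 0.08, while snap25b was higher by 0.24 ± 0.06. With the leading component as a covariate, and also without PFOS10, 1 neuronal gene was lower. In whole brains fewer cells of a type and less RNA per cell cannot be told apart.

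Calls in the other cell lists were 1 of 14 for myelin (tspan2a, 0.23 ± 0.07), 1 of 21 for radial glia (ndrg2, 0.22 ± 0.03), 1 of 10 for microglia (lcp1, -0.54 ± 0.12), 1 of 13 for vessels (tek, -0.80 ± 0.24), 0 of 13 for red cells and 2 of 9 for proliferation (mcm7 and hmgb2a). The summed level of the neuronal list ran from 20951 to 25025 RPM at 226 days and from 20451 to 24565 at 219 days. For retina and pineal genes, tissues with strong clocks, the sum ran from 24.3 to 718 and from 28.1 to 740, and neither of the 2 tested members was called. Taken over both directions, each of these shares lies below the 25.0% of all tested genes called. By direction the background is 18.2% higher and 6.82% lower. The proliferation share higher and the microglia and vessel shares lower lie above these, with 1 or 2 calls each. With replicate means as the unit none of the calls in these cell lists passed.

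Immediate-early genes, which neurons switch on within minutes of activity, gave calls mostly upward. Of 26 tested 7 were higher and 1 lower, beside 18.2% and 6.82% of all tested genes, with jun at 0.70 ± 0.11, ier5 at 0.41 ± 0.06, ier2b at 0.39 ± 0.11 and egr1 at 0.34 ± 0.09. The number higher was 4 with the correlation within exposure replicates, 1 with replicate means and 3 without PFOS10. Neither ier2b nor egr1 passed when POP10, POP70 or PFOS10 was left out. In control ier2b went the other way, with a mean of 4.52 at 226 days and 4.89 at 219 days. The median difference of the list was -0.19 in control, 0.22 in POP10, 0.30 in POP70 and 0.26 in PFOS10. A test of whether the age effect itself varied among these 4 conditions called 2 of 10231 genes (0.0195%), both of this kind. For dusp5, a phosphatase of ERK kinases, the differences were -0.82, -0.14, 0.47 and 0.51 in this order of conditions (F = 23.9, adjusted p = 0.00287, limma). For ier2a they were -0.70, 1.45, 0.72 and 0.18 (F = 17.7, adjusted p = 0.0173). Each of these differences rests on 1 exposure replicate per age.

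Of the remaining stress and metabolic lists, the glucocorticoid list had 3 of 9 higher, beside 18.2% of all tested genes, with the receptor gene nr3c1 at 0.16 ± 0.04, tsc22d3 at 0.34 ± 0.11 and zbtb16b at 0.22 ± 0.06, and 0 with replicate means. Unfolded protein response genes had 2 of 13 higher, pdia4 and herpud1. In sterol synthesis hmgcra, the rate-limiting enzyme, fell by 0.47 ± 0.13 and acat2 rose by 0.19 ± 0.07, the only calls among 17, beside 6.82% lower and 18.2% higher overall. Of 20 neuropeptide and appetite genes 1 was called, cart3 at 0.29 ± 0.10, and 0 of 7 interferon genes. With the correlation within exposure replicates cart3, acat2 and herpud1 did not pass (adjusted p = 0.078, 0.083 and 0.073, limma), and with replicate means no call in these lists did.

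**Figure D4:**
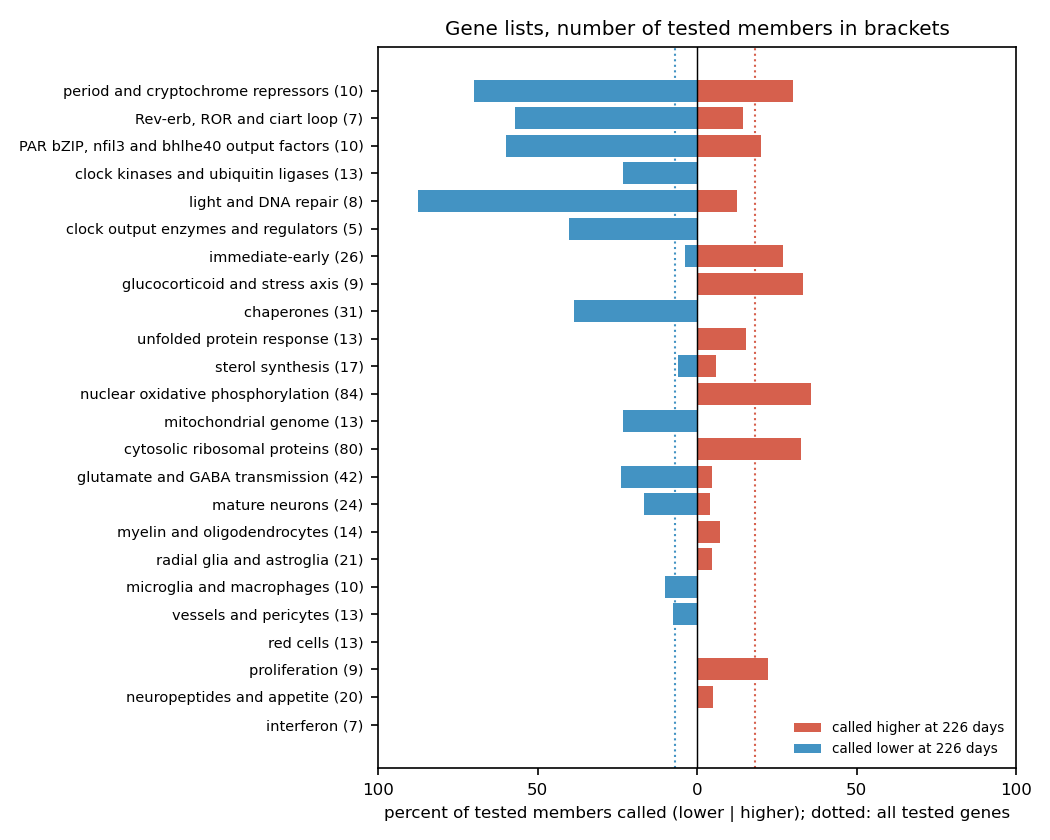
Percent of tested members called higher (red, to the right) and lower (blue, to the left) at 226 days for each gene list with at least 5 tested members, the number tested in brackets, with dotted lines at 18.2% higher and 6.82% lower for all tested genes. The clock and light lists reach far past the lower line, and the red cell and interferon lists have no call.

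In leading genes whose ages did not overlap over both sexes, females and males had to share a direction. Their differences by sex are given for size. The nr1d1 difference was -4.08 in females and -3.85 in males, that of ciarta -4.29 and -4.25, that of per1b -2.26 and -2.39, and that of arntl1a 1.26 and 1.02. An interaction of age with sex called 0 of 10231 genes (limma), and 760 had an unadjusted p under 0.05. This does not show that the sexes are the same, since 8 fish of each sex stood at each age. It was 0 also without a filter, at 100 RPM, after quantile normalization and with the correlation within exposure replicates.

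The PFOS70 fish, not in the comparison, went another way in most of the called clock genes. Their nr1d1 level was 7.62 ± 0.27 (SD, n = 4, from 7.35 to 7.92) at 226 days and 6.79 ± 0.24 (n = 4) at 219 days. So the 4 fish of 226 days lay within the range of 219 days in the other conditions and far above their own age. Their arntl1a level was 5.72 ± 0.17 at 226 days and 6.14 ± 0.14 at 219 days, lower at 226 days where the other conditions were higher. For ciarta the levels were 6.95 ± 0.17 and 6.08 ± 0.15, and for per1b 8.65 ± 0.11 and 8.34 ± 0.14. Signs were opposite for 19 of the 25 called clock genes. The others, per3, dbpa, tefb, nr1d2a, tefa and cry2, were lower at 226 days in PFOS70 too, with per3 at 9.05 and 9.80.

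The test of the difference itself, the age effect in PFOS70 minus the mean age effect in the other 4 conditions, called 195 of 10231 genes (1.91%), 84 higher and 111 lower. For nr1d1 it was 4.79, for ciarta 5.14, for per1b 2.64, for si:ch211-132b12.7 4.42 and for arntl1a -1.56, each past the threshold (limma). Of the 29 tested clock genes 23 were among the 195. Of the 195 genes 162 were called in the other 4 conditions, beside 25.0% of all tested genes, and 170 had opposite signs there, against 35.3%. Of the 50 genes with groups that did not overlap, 46 were called in this test. The 195 genes were picked by a large difference between PFOS70 and the other conditions, so calls and opposite signs are partly built into these counts. PFOS70 was set apart with its values known, so the counts describe that choice and are no independent support. PFOS70 at 226 days is 1 exposure replicate, so its condition, exposure batch and sampling cannot be told apart, and with the correlation within exposure replicates 99 genes were called.

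The means of the called clock genes did not follow the order of the 4 labelled ages. In the 4 conditions nr1d1 averaged 7.32 at 219 days, 3.36 at 226, 5.21 at 233 and 7.28 at 240 days (n = 16 each). For nfil3-5 the means were 4.59, 7.31, 5.49 and 4.50 in this order. Of the 25 called clock genes, the mean at 233 days lay between those of 226 and 219 days for 25, and the mean at 240 days was nearer to 219 than to 226 days for 24. Means of these 25 genes did not rise or fall steadily over the 4 labelled ages. They were called for a difference between 226 and 219 days, so means of other ages lying between these are partly built in. No such count was made for the other called genes or for all tested genes, and the cause was not tested. In PFOS70 nr1d1 was 6.79, 7.62, 4.56 and 6.71, with the low point at 233 days.

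**Figure D5:**
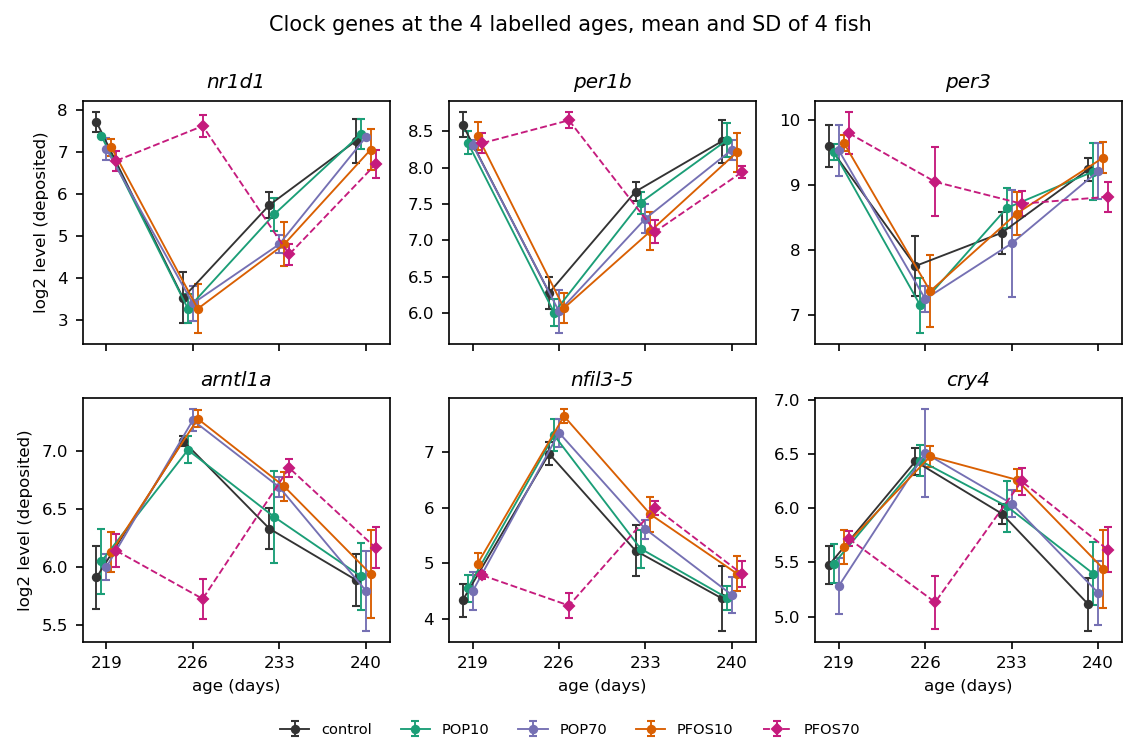
Mean and SD of 4 fish (deposited log2 level, vertical axes) at the 4 labelled ages in days (horizontal axes) for 6 clock genes in each condition, with PFOS70 dashed. In control, POP10, POP70 and PFOS10 nr1d1 and per1b are lowest and arntl1a, nfil3-5 and cry4 highest at 226 days, where PFOS70 lies at the other end. The gene per3 is also lowest at 226 days in these conditions, but in PFOS70 it is lower at 226 than at 219 days too.

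Each condition was also held against the rest. Genes called without control numbered 1781, and 84.9% of them had the same direction in control, against 64.8% of all genes. For POP10 it was 84.1% of 2114 against 66.1%, for POP70 1655 of 1742 genes against 76.2%, and for PFOS10 82.1% of 1589 against 64.9%. In PFOS70 72.3% of the 2559 genes called in the other 4 conditions had the same direction, against 64.7% of all genes, and 33 of the 59 with at least a 2-fold change did.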

How the data were processed

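Per the labels' protocols, poly-A RNA from 2 µg of total RNA was sequenced as 150 bp pairs with 20 Mreads (1 Mread is 1000000 reads) planned for each. GRCz11, R 3.5.0, DESeq2, STAR 2.5.4b and Trim Galore 0.4.5 are listed, per the submitters' processing notes; how reads were counted, by which annotation and strand, and how libraries were scaled is not given in the sources used here. The deposited values are log2 normalized expression, per the file headers. Below 5000 reads, 100% of values in every library came within 0.02 of whole reads, so reads were recovered, with 0 standing as 0.9 read; how reads shared by similar genes were assigned is not known.

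Differences were fitted with limma 3.58.1 in R 4.3.3 on the log2 values, 1 mean for each of 8 condition and sex groups plus age, with a mean-variance trend, two-sided, Benjamini-Hochberg adjusted over 10231 genes. Interactions were added to the same model, and the PFOS70 difference was fitted over 40 fish. The fit was tested on simulated data. Exact permutation tests used Python 3.11.15 and scipy 1.17.1. Fish are the replicates, and p-values measure the spread between fish, of which 4 share an exposure. They do not measure the spread between replicate numbers, since each age has 1 number. The table lists 23473 entries for 22925 identifiers, 22752 of them in the gene name table. The members, the lists and the tests were chosen with earlier results of these data known. Named genes are all tested clock list members, up to 15 each way outside them by size, up to 4 called members of each other list by smallest p, and up to 3 per interaction; clone names are counted.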

Additional observations from a re-analysis of the deposited data

Results flagged for a closer look

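For nr1d1, arntl1a and the leading component, the highest and lowest of 4 values were compared with the rest in 30 groups. The groups were the fish of 1 condition and age or the replicate means of 1 age. In them 3 fish stood apart, where chance gives about 1 in 20. They were the lowest nr1d1 fish of PFOS10 at 219 days (6.80), the lowest arntl1a fish of control at 226 days (7.03) and the highest arntl1a fish of PFOS10 at 226 days (7.39). Each lay on its own age's side of the gap.

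The age difference of the PFOS70 fish differed from that of the other 4 conditions in 195 genes (limma's test of the difference). It was higher by 4.79 log2 units for nr1d1, 5.14 for ciarta, 2.64 for per1b and 4.42 for si:ch211-132b12.7, and -1.56 for arntl1a. Among the 4 conditions the age difference differed for dusp5 (F = 23.9) and ier2a (F = 17.7), both immediate-early genes. The part of sampling hour, exposure batch or labels in these differences was not tested.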

How the results depend on the processing

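The count of 2559 called genes was 2704 without a filter, 2572 with log2(value + 1), 2564 with voom on recovered reads and 2590 after quantile normalization. The last had 1671 higher and 919 lower. It was 729 of 2751 genes at 100 RPM, where fewer genes are tested, 148 with replicate means, 328 in females and 1499 in males alone. Leaving out 1 condition or fish number gave 208 to 2114. The count was 3390 with PFOS70 included and 3724 with library weights. With the leading component as covariate it was 2332, of which 1927 were higher. Of these 2332 genes 1673 were among the 2559. Fish numbers do not pair the samples, since deviations of same-numbered fish correlated between -0.390 and 0.297 over 8 groups. The replicate block of condition, sex and fish number gave 2269 calls, and no block 2446.

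The difference of nr1d1 lay between -4.08 and -3.01 and that of arntl1a between 0.83 and 1.26 over the alternatives run, always past the threshold. Paired by condition the exact permutation p of both was 0.125. The condition interaction called 1 gene at 100 RPM and 19 after quantile normalization. The PFOS70 difference called 109 and, with correlation within exposure replicates, 99; the cause of these moves was not tested. Of the 102 named genes past the threshold 0 changed sign, and 35 stayed past it under every alternative. edgeR was not run, since the deposited values are log2, nor was the condition interaction with a correlation within exposure replicates, since the model already holds each replicate.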
